A study of Rattus norvegicus with 18 samples.

Results

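Jejunal mucosa of rats given abemaciclib at 36 mg/kg/day was set against that of rats given palbociclib at 30 mg/kg/day, with 3 arrays on each side out of 18 in the series. Both groups were male Sprague Dawley rats of 6 to 8 weeks, dosed by oral gavage, and the mucosa was scraped from the jejunum for total RNA. The abemaciclib 36 group received its compound in hydroxypropyl methylcellulose (0.5%) with tween 80 (0.25%) in citrate buffer (10 mM, pH 3), and the palbociclib 30 group in methylcellulose (0.5%). The other groups were abemaciclib 120 and palbociclib 100 mg/kg/day, ribociclib 300 mg/kg/day, in the same vehicle as abemaciclib, and a vehicle group given methyl cellulose, with 3 arrays each. Compound, dose and vehicle all differ between the abemaciclib 36 and palbociclib 30 groups and cannot be told apart here. The series describes 10 rats per group dosed for 4 or 15 days, but the labels give neither the duration nor the animal behind an array, so the p-values reflect how these arrays vary, which may be technical.

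Abemaciclib and palbociclib inhibit the cyclin-dependent kinases CDK4 and CDK6. These kinases, bound to a D-type cyclin, phosphorylate the retinoblastoma protein and so release E2F factors that switch on the genes of DNA replication. The jejunal lining renews itself from dividing cells in the crypts, whose daughters mature as they move up the villus, and Wnt signals and growth factor signals keep the crypts dividing. The 2 molecules share an aminopyrimidine that carries a pyridine with a piperazine ring, but palbociclib is built on a pyridopyrimidinone with a cyclopentyl group and abemaciclib on a fluorinated pyrimidine joined to a fluorinated benzimidazole. In biochemical assays abemaciclib binds a wider set of kinases than palbociclib does, CDK9 among them.

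Of 14217 genes measured, 176 differed between abemaciclib 36 and palbociclib 30 (limma, Benjamini-Hochberg adjusted p under 0.05), which is 1.24% of them. In the abemaciclib 36 group 60 were higher (0.422% of genes tested) and 116 were lower (0.816%). Of the 176, 124 differed at least 2-fold and 26 at least 4-fold; the median size was 2.25-fold among the higher genes and 2.36-fold among the lower ones. The 3 abemaciclib 36 arrays did not overlap with the 3 palbociclib 30 arrays in any of the 176. Over all genes, 20.5% had no overlap. The calls rest on these same arrays, so the separation of the 176 follows largely from the call and is no separate support. Enterocyte genes stood near the top of the signal range in all 6 arrays: Vil1, Fabp1, Fabp2, Apoa1, Apoa4, Alpi and Slc5a1 each lay above the level of at least 92.98% of genes. The 3 abemaciclib 36 arrays were not alike. Array B lay nearest to palbociclib 30 in 118 of the 176 genes, array C in 38 and array A in 20. The number of calls was 32 without abemaciclib 36 A, 775 without B and 61 without C, and 73, 43 and 35 without palbociclib 30 A, B and C. Array A also held higher markers of the proximal gut, with a mean level over the list of 9.83 against 8.58 and 8.76 in arrays B and C and 8.65 to 8.86 in palbociclib 30, and lower ileal markers, at 6.90 against 8.96 and 8.42 in B and C and 8.08 to 8.47 in palbociclib 30. The part of these regional markers in the results was not tested beyond leaving out the array. In all, 22 genes were called with every array in and with each of the 6 arrays left out in turn: 10 higher, among them Slc25a25, Haus6, Epha2, Axin2, Ctrc and Klf10, and 12 lower, among them Frat2, Pdk4, Trim36, Ppargc1a, Cd8a and Maf. Of the 65 called genes named here, 18 kept their call in all 6 of these fits. With only the 6 compared arrays fitted, which leaves fewer degrees of freedom, 15 genes were called in all and 8 of the 22 kept their call, among them Frat2, Epha2, Axin2, Trim36, Ppargc1a and Maf. The other 14, Slc25a25, Haus6, Ctrc, Klf10, Pdk4 and Cd8a among them, then had limma adjusted p values of 0.0513 to 0.105.

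**Figure D1:**
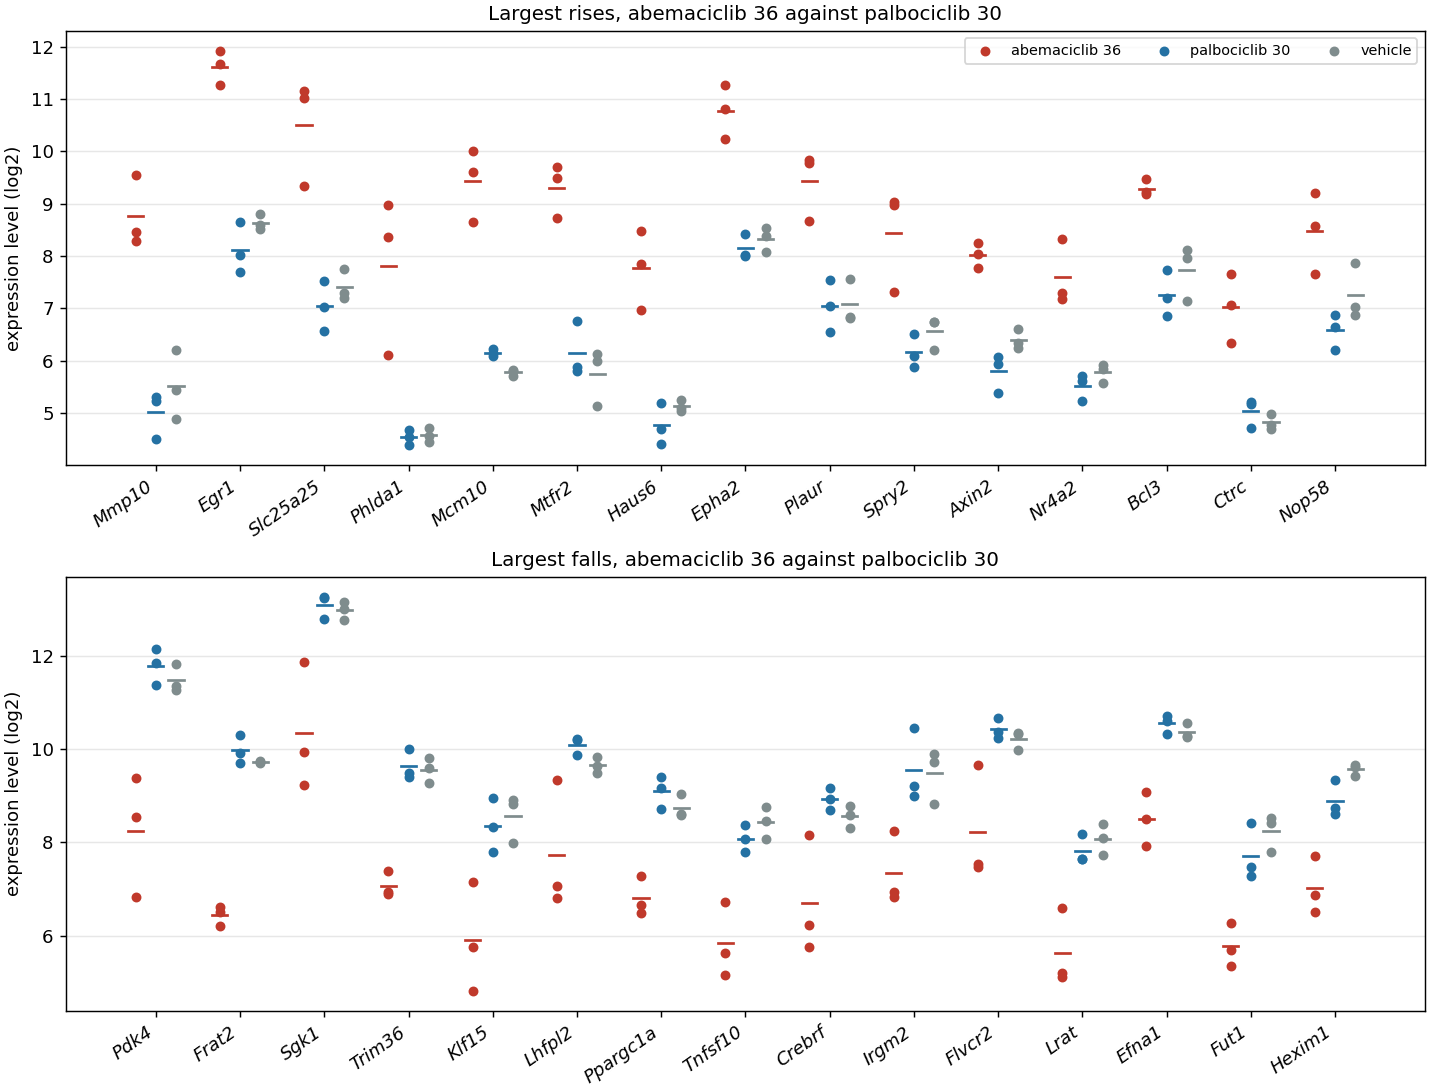
Expression level (log2, RMA) of the 15 most raised and the 15 most lowered genes in each abemaciclib 36, palbociclib 30 and vehicle array; points are arrays and bars are group means (n = 3). Genes were picked among calls without overlap of abemaciclib 36 and palbociclib 30 arrays, so their separation follows from the choice. Abemaciclib 36 B was the array closest to palbociclib 30 in Phlda1, Sgk1, Crebrf and Flvcr2.

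Frat2 had the lowest adjusted p of the whole comparison. FRAT proteins bind GSK3 and keep it from phosphorylating beta-catenin, and so favour Wnt signalling when they are abundant. The log2 level of Frat2 was 6.21, 6.62 and 6.50 in the abemaciclib 36 arrays, against 9.71, 9.91 and 10.30 in the palbociclib 30 arrays and 9.70, 9.73 and 9.74 in the vehicle arrays. All 3 abemaciclib 36 arrays lay together more than 3 log2 units below every palbociclib 30 array. Frat2 fell 11.6-fold (log2 difference -3.53, SE 0.33, limma adjusted p = 0.000129). Axin2, a target gene of beta-catenin whose product feeds back on the pathway by building its destruction complex, went the other way. Its level was 7.77, 8.25 and 8.04 in abemaciclib 36, against 5.37, 5.94 and 6.07 in palbociclib 30. Axin2 rose 4.68-fold (log2 2.23, SE 0.35, limma adjusted p = 0.0062). Of 14 Wnt feedback and target genes measured, Axin2 was the single call, with 11 of the 14 above 0 and a median difference of 0.30 (0.13 without abemaciclib 36 C). Of 12 genes of GSK3 and the beta-catenin destruction complex, 2 fell and none rose, with a median of -0.09, and the median of all genes was 0.003. The second was Gskip, which encodes a GSK3-binding protein, at 7.95, 8.19 and 7.75 in abemaciclib 36 and 8.93, 9.0 and 9.07 in palbociclib 30 (log2 -1.04, limma adjusted p = 0.0319); its call held in 1 of the 6 fits that leave out an array. Gsk3b itself, the kinase, had a difference of 0.47 and did not pass (limma adjusted p = 0.346).

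The upstream sequence of Frat2 and of Egr1, which led the growth factor response genes, is shown because the first fell in every abemaciclib 36 array and the second rose in every one. All 176 calls were without overlap of the arrays, so this does not set the 2 genes apart from the other calls. Each sequence is the 250 bases before the annotated start in RefSeq's GRCr8 assembly, 5′ to 3′ on the gene's own strand. Frat2 lies on the minus strand at chr1:250605780-250606029, with GGGCGG or its reverse complement, the core of a GC box, in capitals, and Egr1 on the plus strand at chr18:26736828-26737077, with CArG boxes, the sites that serum response factor reads, in capitals.
Frat2: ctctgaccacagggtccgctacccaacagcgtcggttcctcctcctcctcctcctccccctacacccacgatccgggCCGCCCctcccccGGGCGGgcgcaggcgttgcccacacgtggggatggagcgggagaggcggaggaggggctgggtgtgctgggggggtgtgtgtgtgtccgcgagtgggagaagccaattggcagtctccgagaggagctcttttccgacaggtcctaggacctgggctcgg
Egr1: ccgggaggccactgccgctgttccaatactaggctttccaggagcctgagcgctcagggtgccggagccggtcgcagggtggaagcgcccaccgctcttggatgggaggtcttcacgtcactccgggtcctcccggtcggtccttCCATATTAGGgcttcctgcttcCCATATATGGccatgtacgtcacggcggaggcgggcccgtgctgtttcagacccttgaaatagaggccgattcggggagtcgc
The GC box core, searched on both strands, occurs 2 times in the Frat2 window and at least once in 30.5% of 33469 promoter windows of the same length. It occurs in 55.1% of the windows of genes called higher and in 60.2% of those of genes called lower, so it is common among the calls in both directions. The 30.5% is over all annotated windows and not over those of the measured genes only. No share over the measured genes was computed, so these shares are not directly comparable. The CArG box, which reads the same on both strands, occurs 2 times in the Egr1 window, starting 105 and 83 bases before the start, and in 1.5% of the windows. Of the 60 higher genes, 49 had a window, and 1 of these, Egr1, held a CArG box. A match is a description of the letters and not of binding.

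Among the genes that growth factor signals switch on within minutes, and those listed as MAP kinase feedback genes, all calls were rises with abemaciclib 36. The feedback list holds genes that damp the MAP kinase signal and also others that do not, such as the ligand gene Areg. Of 23 immediate early genes measured, 4 rose and none fell (Egr1, Nr4a2, Junb and Klf10), with a median of 0.37. Of 16 MAPK feedback genes, 3 rose and none fell (Phlda1, Spry2 and Spry1), with a median of 0.67. Over all genes, 0.422% were called higher and 0.816% lower. Egr1, a zinc finger transcription factor, stood at 11.92, 11.26 and 11.66 in abemaciclib 36, against 8.64, 7.70 and 8.01 in palbociclib 30 and 8.81, 8.59 and 8.52 in vehicle. It rose 11.3-fold (log2 3.50, SE 0.61, limma adjusted p = 0.0111). Nr4a2, an orphan nuclear receptor, was at 8.32, 7.17 and 7.29 in abemaciclib 36 and 5.71, 5.23 and 5.62 in palbociclib 30, a 4.21-fold rise (SE 0.41 log2, limma adjusted p = 0.0229). Junb, a subunit of the AP-1 factor, rose 3.04-fold, and Klf10, a TGF-beta-responsive repressor, rose 2.42-fold with 11.25, 11.30 and 11.49 in abemaciclib 36 against 10.30, 9.89 and 10.01 in palbociclib 30. Klf10 was the one of the 4 whose call held whichever array was left out; Egr1 kept it in 3 of 6 such fits, Nr4a2 in 2 and Junb in 1. Phlda1, a negative regulator of receptor signalling, stood at 8.97, 6.11 and 8.36 in abemaciclib 36 and at 4.38, 4.54 and 4.68 in palbociclib 30, with array B the lowest of the 3 abemaciclib 36 arrays. It rose 9.71-fold (log2 3.28, SE 0.70, limma adjusted p = 0.0329). The Sprouty genes, which encode inhibitors of receptor tyrosine kinase signalling, rose by 4.87-fold (Spry2) and 2.0-fold (Spry1). The call of Spry2 held in 3 of the 6 fits that leave out an array, and those of Phlda1 and Spry1 in 1. With only the 6 compared arrays fitted, Phlda1, Spry2 and Spry1 all lost their calls. Areg, the EGF receptor ligand amphiregulin, was at 11.94, 10.77 and 11.46 in abemaciclib 36 and 9.15, 9.50 and 8.36 in palbociclib 30, a log2 difference of 2.39 that just missed the threshold (limma adjusted p = 0.0639).

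Mmp10, the secreted protease stromelysin-2, had the largest rise of all at 13.5-fold, with 8.29, 8.45 and 9.54 in abemaciclib 36 and 4.50, 5.23 and 5.30 in palbociclib 30 (log2 3.75, SE 0.86, limma adjusted p = 0.0473). Its call is close to the threshold and held in 1 of the 6 fits that leave out an array. Epha2, an ephrin receptor, stood at 11.27, 10.23 and 10.80 in abemaciclib 36 and at 8.00, 8.02 and 8.42 in palbociclib 30, a 6.13-fold rise (SE 0.40 log2, limma adjusted p = 0.0059). Its ligand gene Efna1 moved in the opposite direction, with 7.92, 9.09 and 8.49 in abemaciclib 36 and 10.61, 10.33 and 10.72 in palbociclib 30, a 4.14-fold fall (SE 0.34 log2, limma adjusted p = 0.0085). Efna4, another ephrin-A ligand, chosen after its values were seen, fell 2.42-fold. Plaur, the urokinase receptor, rose 5.22-fold in its brightest probe set, but its second probe set differed by 0.24 and did not pass. Bcl3, a nuclear cofactor of NF-kappaB, rose 4.08-fold in its brightest probe set, while its others differed by 1.30 and 0.90 and did not pass. Of the 20 genes in the list of epithelial injury and repair, none was called in either direction and the median was 0.02; Krt7, a keratin, differed by 0.98 (limma adjusted p = 0.0545).

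Among metabolic genes that fasting and glucocorticoids raise in many tissues, most calls were falls with abemaciclib 36. Over all genes most calls were falls too, 116 of 176. Of 23 genes in the list, 4 fell (Pdk4, Sgk1, Klf15 and Ppargc1a) and 1 rose (Foxo3), with a median of -0.21. Pdk4, the kinase that shuts off pyruvate dehydrogenase, stood at 6.82, 9.39 and 8.55 in abemaciclib 36, against 12.14, 11.84 and 11.37 in palbociclib 30 and 11.35, 11.26 and 11.82 in vehicle. It fell 11.6-fold (log2 -3.53, SE 0.56, limma adjusted p = 0.0071), and a second probe set gave -3.51. Ppargc1a, the PGC-1alpha coactivator of mitochondrial genes, was at 6.49, 7.28 and 6.66 in abemaciclib 36 and 8.71, 9.40 and 9.18 in palbociclib 30. It fell 4.88-fold (log2 -2.29, SE 0.28, limma adjusted p = 0.0017), in all 3 of its probe sets. Both calls held whichever array was left out. Sgk1, a kinase that raises sodium transport, stood at 9.23, 11.87 and 9.93 in abemaciclib 36 and 13.28, 13.24 and 12.80 in palbociclib 30, with array B again the closest. It fell 6.78-fold (SE 0.47 log2, limma adjusted p = 0.0096). Klf15, a glucocorticoid-induced factor of amino acid and lipid metabolism, fell 5.46-fold in its brightest probe set, while another of its probe sets differed by 0.04. Foxo3, a transcription factor of the fasted state, rose 2.0-fold, and its other probe sets differed by 0.11 and 0.18. The calls of Sgk1, Klf15 and Foxo3 held in 3, 2 and 1 of the 6 fits that leave out an array.
Slc25a25, a calcium-regulated carrier of ATP-Mg and phosphate in the inner mitochondrial membrane, was the single call among 21 genes of the SLC25 carriers, whose median was -0.004. It stood at 11.15, 9.33 and 11.02 in abemaciclib 36 and 7.03, 6.56 and 7.53 in palbociclib 30, an 11-fold rise (log2 3.46, SE 0.49, limma adjusted p = 0.0034).

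Single genes of retinoid and xenobiotic metabolism fell with abemaciclib 36. Lrat, the enzyme that esterifies retinol for storage and transport, stood at 5.19, 6.58 and 5.12 in abemaciclib 36 and 7.63, 7.65 and 8.19 in palbociclib 30 (4.57-fold, log2 -2.19, SE 0.39, limma adjusted p = 0.0111). It was the single call among 16 genes of retinoid metabolism, whose median was -0.03. Nr1i3, the nuclear receptor CAR that drives drug-metabolising enzymes, fell 2.88-fold and was the single call among 23 genes of xenobiotic metabolism, with a median of -0.17. Abemaciclib 36 B, at 8.21, stood near the palbociclib 30 arrays at 8.48, 8.53 and 8.77, whereas A and C were at 6.61 and 6.39. Cyp1a1, the enzyme that aryl hydrocarbons induce, was at 5.25, 5.35 and 5.61 in abemaciclib 36, 7.20, 6.01 and 5.11 in palbociclib 30 and 5.20, 12.92 and 9.33 in vehicle, and no comparison of it passed. Flvcr2, a membrane transporter, fell 4.61-fold in its brightest probe set, while the other differed by -0.16 and did not pass. Fut1, a fucosyltransferase that makes the H antigen, was at 5.35, 5.69 and 6.27 in abemaciclib 36 and 7.48, 7.27 and 8.41 in palbociclib 30, a 3.86-fold fall (SE 0.33 log2, limma adjusted p = 0.0096). No gene of the mature enterocyte was called among 19 brush border hydrolases (median -0.07), 22 genes of lipid absorption (median -0.23) or 26 nutrient transporters (median -0.22). Of these, 12, 19 and 20 lay below 0, while 7172 of all 14217 genes lay above 0. Without abemaciclib 36 C, 15 of the 26 transporters lay below 0, with a median of -0.07. Alpi, intestinal alkaline phosphatase, differed by -0.22 (95% interval -1.56 to 1.11), and Fabp1, the fatty acid binding protein, by less than 0.01 (95% interval -0.15 to 0.15).

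**Figure D2:**
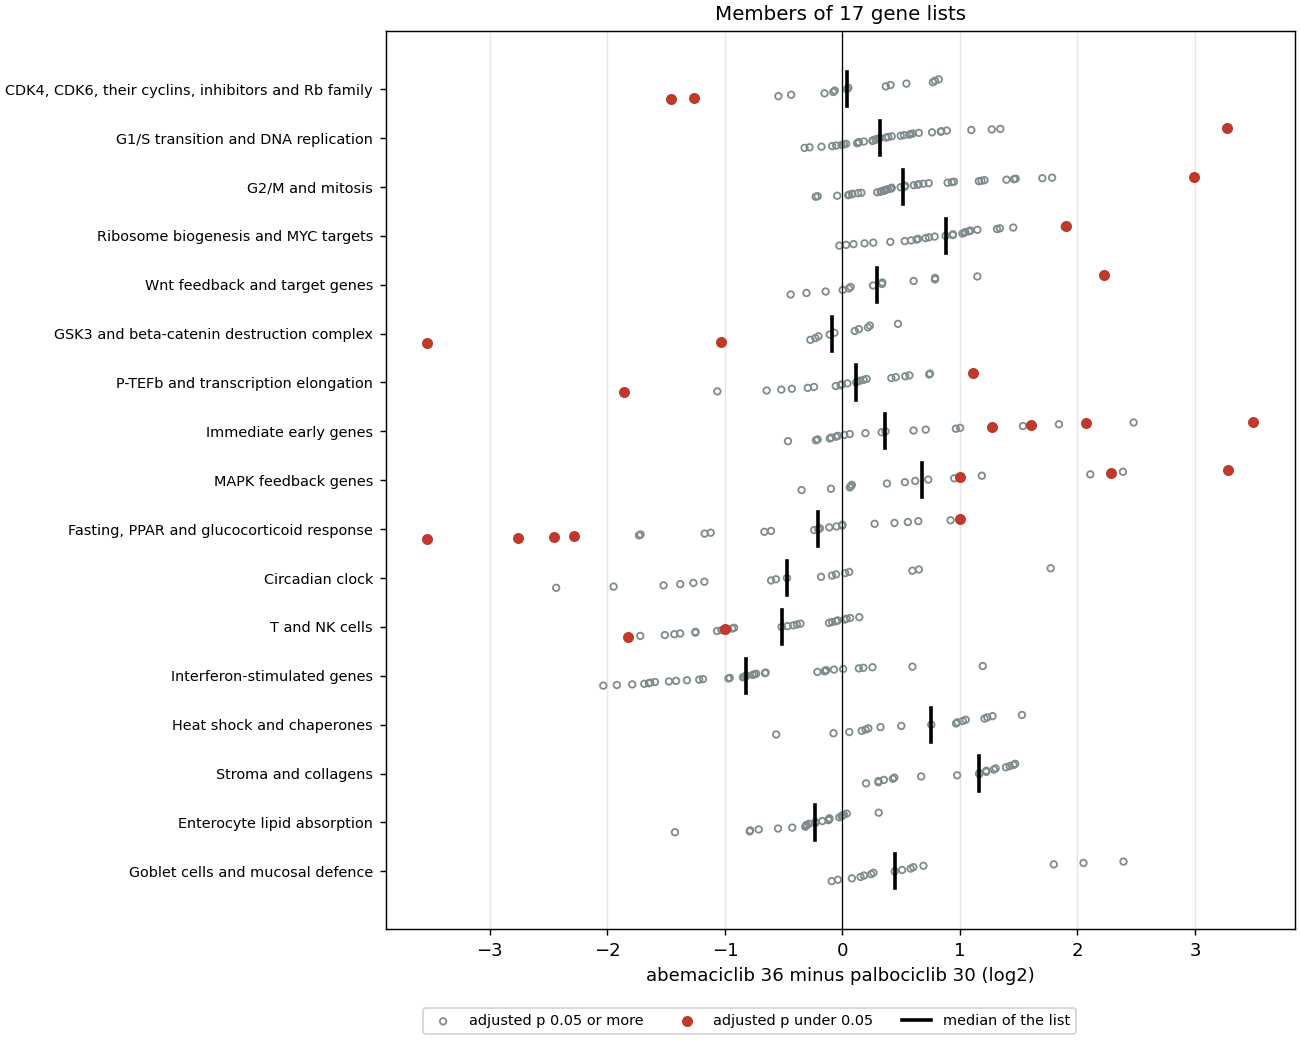
Difference of abemaciclib 36 minus palbociclib 30 (log2) for each measured member of 17 gene lists, filled where limma's adjusted p was under 0.05, with the list median as a bar. Called members lie on the high side in the immediate early and MAPK feedback lists and mostly on the low side in the fasting list, and all 18 stroma genes lie above 0 with none called.

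Of 15 genes of the CDK4 and CDK6 machinery 2 fell and none rose, with a median of 0.04, and both called genes encode CDK inhibitors. In 2 of the 15 every abemaciclib 36 array lay above every palbociclib 30 array (10.0% of all genes) and in 4 every one lay below (10.5%). Cdkn2d, which encodes the INK4 family inhibitor p19, stood at 6.27, 6.21 and 6.60 in abemaciclib 36, 7.43, 7.58 and 8.45 in palbociclib 30 and 8.23, 8.28 and 8.38 in vehicle. It fell 2.76-fold (log2 -1.46, SE 0.26, limma adjusted p = 0.0125), a call kept in 4 of the 6 fits that leave out an array. Cdkn1b, which encodes the inhibitor p27, was at 8.91, 10.19 and 9.76 in abemaciclib 36 and 11.14, 10.74 and 10.77 in palbociclib 30, a 2.40-fold fall (SE 0.28 log2, limma adjusted p = 0.0415). The Cdkn1b call held in 1 of the 6 such fits, with log2 differences of -1.55 to -0.91. Both genes gave the same direction in a second probe set. Cdkn1a, the p21 inhibitor that p53 induces, differed by 0.77 and did not pass (limma adjusted p = 0.112). Cdk4 differed by 0.82 (95% interval -0.15 to 1.79), Ccnd1, cyclin D1, by 0.79 (95% interval -0.33 to 1.90), Cdk6 by 0.04 and Rb1 by -0.08, and none of these passed.

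Cell division genes gave 2 calls at these doses, both rises. Of 35 genes of the G1/S transition and DNA replication, 1 rose and 29 lay above 0, with a median of 0.32. Of 40 genes of G2/M and mitosis, 1 rose and 37 lay above 0, with a median of 0.51. Over all genes, 0.422% were called higher. In 8 of the G1/S and 13 of the G2/M genes every abemaciclib 36 array lay above every palbociclib 30 array (10.0% of all genes). In none of either list did every one lay below (10.5%). Abemaciclib 36 C stood highest, with mean levels over the G2/M list of 5.58, 5.51 and 6.63 in abemaciclib 36 and 5.06, 5.31 and 5.37 in palbociclib 30, and over the G1/S list of 5.88, 5.74 and 6.46 in abemaciclib 36 and 5.44, 5.58 and 5.66 in palbociclib 30. Without that array the G2/M median was 0.15, with 32 of 40 above 0, and the G1/S median 0.13, with 26 of 35 above 0. The 2 called genes stood far from the rest of their lists. Mcm10, which loads the replication machinery at origins, was at 9.61, 10.00 and 8.65 in abemaciclib 36, 6.09, 6.22 and 6.14 in palbociclib 30 and 5.80, 5.82 and 5.71 in vehicle. It rose 9.67-fold (log2 3.27, SE 0.77, limma adjusted p = 0.0488), a call that was lost whichever array was left out, and a second probe set gave 3.13. Haus6, a subunit of the augmin complex that seeds microtubules in the spindle, was at 8.47, 6.97 and 7.84 in abemaciclib 36 and 4.41, 5.19 and 4.69 in palbociclib 30. It rose 7.98-fold (log2 3.0, SE 0.38, limma adjusted p = 0.0017) in its brightest probe set, whereas the second differed by 0.11 and did not pass. Mki67, the proliferation marker, stood at 6.97, 7.68 and 8.57 in abemaciclib 36, 6.78, 8.07 and 9.0 in palbociclib 30 and 8.90, 8.01 and 7.78 in vehicle, and the groups overlapped (difference -0.21, 95% interval -1.56 to 1.14). Ube2c, Ccnb2 and Nusap1, which act in mitosis, differed by 1.70, 1.78 and 1.40 and did not pass (limma adjusted p = 0.103, 0.108 and 0.0698). Lgr5, the crypt-base stem cell receptor, lay between 3.86 and 4.30 in all 6 arrays, against a lowest value of 2.86 on any array. None of the 15 stem cell genes was called, but 13 lay above 0, with a median of 0.34 (0.21 without abemaciclib 36 C). In 5 of them every abemaciclib 36 array lay above every palbociclib 30 array (10.0% of all genes) and in 1 every one lay below (10.5%). Smoc2, another stem cell gene, differed by 2.25 in its brightest probe set (limma adjusted p = 0.0692), and its other probe sets differed by 0.06 and -0.08.

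At the higher doses, abemaciclib 120 minus palbociclib 100, measured on other arrays, more genes were called. In that comparison 2598 genes were called, 18.3% of those tested, 1623 higher (11.4%) and 975 lower (6.86%). Of the 35 G1/S genes 30 rose with a median difference of 1.52, and of the 40 G2/M genes all 40 rose with a median of 2.36. The difference between the 2 dose pairs was itself tested over all genes, and 50 genes (0.352%) passed, 18 with a larger value at the lower doses (0.127%) and 32 with a smaller one (0.225%); none of them was among the 176. The abemaciclib 120 arrays had beta-actin 3′ minus 5′ signal differences of 0.86 to 1.05, against 0.50 to 0.76 in palbociclib 100, while abemaciclib 36 at 0.53 to 0.80 and palbociclib 30 at 0.51 to 0.77 were close to each other; with that measure as a covariate the higher dose pair gave 970 calls and the difference between the pairs 1.

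**Figure D3:**
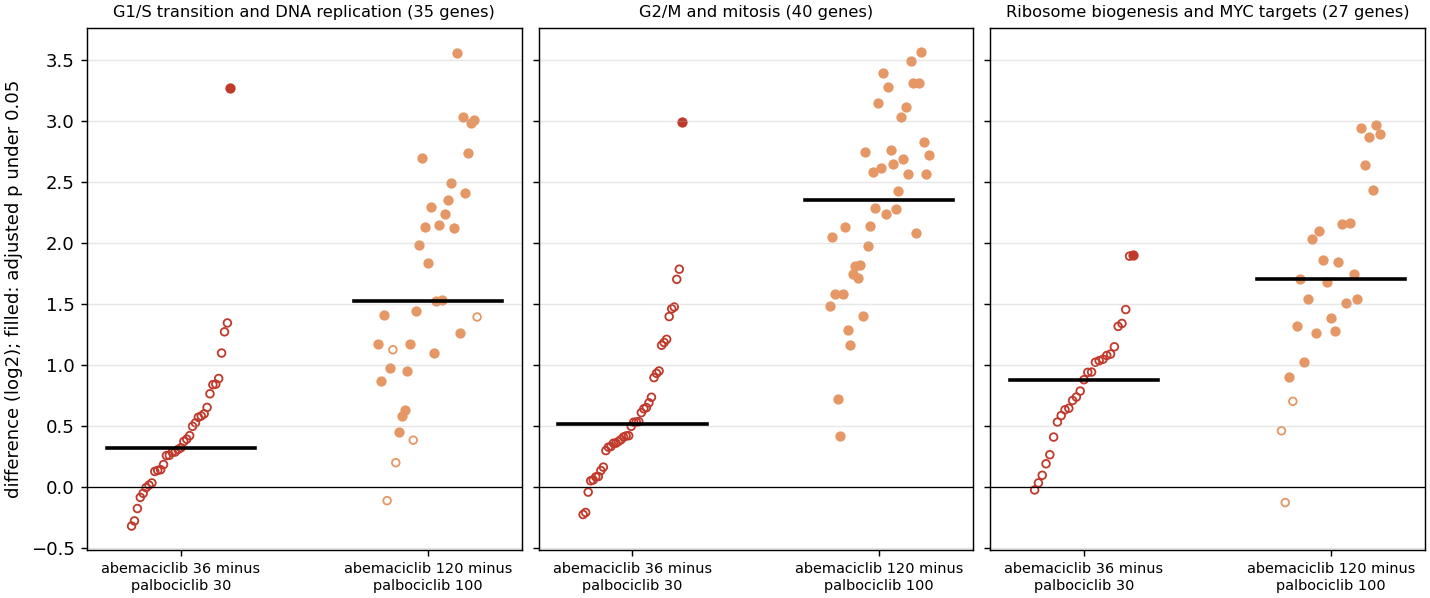
Difference (log2) of each member of the G1/S, G2/M and ribosome biogenesis lists at the lower and at the higher dose pair, filled where limma's adjusted p was under 0.05, with the median as a bar. The medians were 0.32, 0.51 and 0.88 at the lower doses and 1.52, 2.36 and 1.71 at the higher doses.

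Most of the 176 genes kept their direction on the arrays of the higher doses. The same-lettered arrays of abemaciclib 36 and abemaciclib 120 deviated together from their group means (correlations over genes of 0.13, 0.59 and 0.30); whether they share a batch was not tested. Of the 60 higher genes, 54 (90%) were above 0 in abemaciclib 120 minus palbociclib 100, where 43.9% of all genes were, and 33 were called higher. Of the 116 lower genes, 112 (96.6%) were below 0, where 56.1% of all genes were, and 63 were called lower. None of the 176 was called in the opposite direction. The higher genes had a median difference of 0.78 there and 1.17 at the lower doses, and the lower genes -0.72 there and -1.24 at the lower doses. Haus6 differed by 2.72, Egr1 by 2.86, Nop58 by 2.89, Ppargc1a by -2.18 and Frat2 by -1.92 at the higher doses, all called. Fut1 differed by 0.24, Bcl3 by -0.02, Hexim1 by -0.29 and Sgk1 by -0.61 there, none called. Ribociclib 300 shared the vehicle of abemaciclib, and its levels are given beside the others with no test, since its dose differs. Frat2 averaged 6.44 in abemaciclib 36, 9.97 in palbociclib 30, 9.84 in ribociclib 300 and 9.72 in vehicle. Haus6 averaged 7.76 in abemaciclib 36, 4.76 in palbociclib 30, 4.92 in ribociclib 300 and 5.13 in vehicle, and Axin2 averaged 8.02 in abemaciclib 36, 5.79 in palbociclib 30, 6.16 in ribociclib 300 and 6.39 in vehicle. In these genes ribociclib 300 stood close to palbociclib 30 and vehicle. Ppargc1a averaged 6.81 in abemaciclib 36, 9.10 in palbociclib 30, 6.28 in ribociclib 300 and 8.75 in vehicle, and Tnfsf10 averaged 5.84 in abemaciclib 36, 8.08 in palbociclib 30, 5.62 in ribociclib 300 and 8.43 in vehicle. Egr1 averaged 11.61 in abemaciclib 36, 8.12 in palbociclib 30, 11.06 in ribociclib 300 and 8.64 in vehicle, with 1 ribociclib 300 array, at 9.06, near vehicle. In these genes ribociclib 300 stood close to abemaciclib 36.

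**Figure D4:**
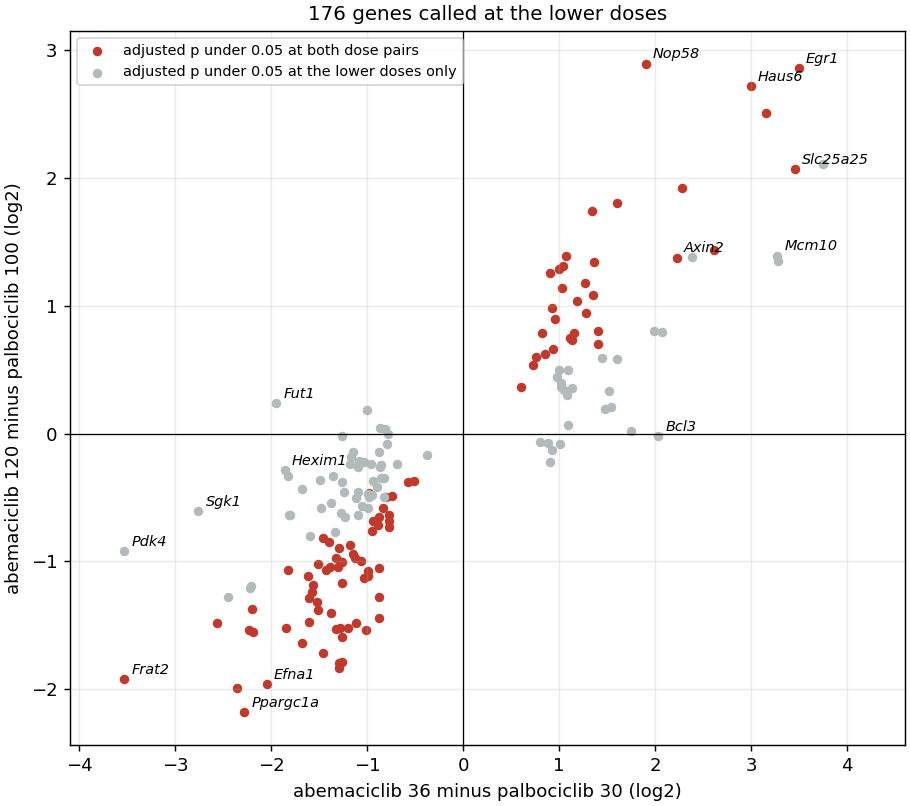
Difference at the lower doses (x axis, abemaciclib 36 minus palbociclib 30) and at the higher doses (y axis, abemaciclib 120 minus palbociclib 100), both log2, for the 176 genes called at the lower doses; red points passed at both. Of the higher genes 54 of 60 and of the lower genes 112 of 116 keep their sign.

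**Figure D5:**
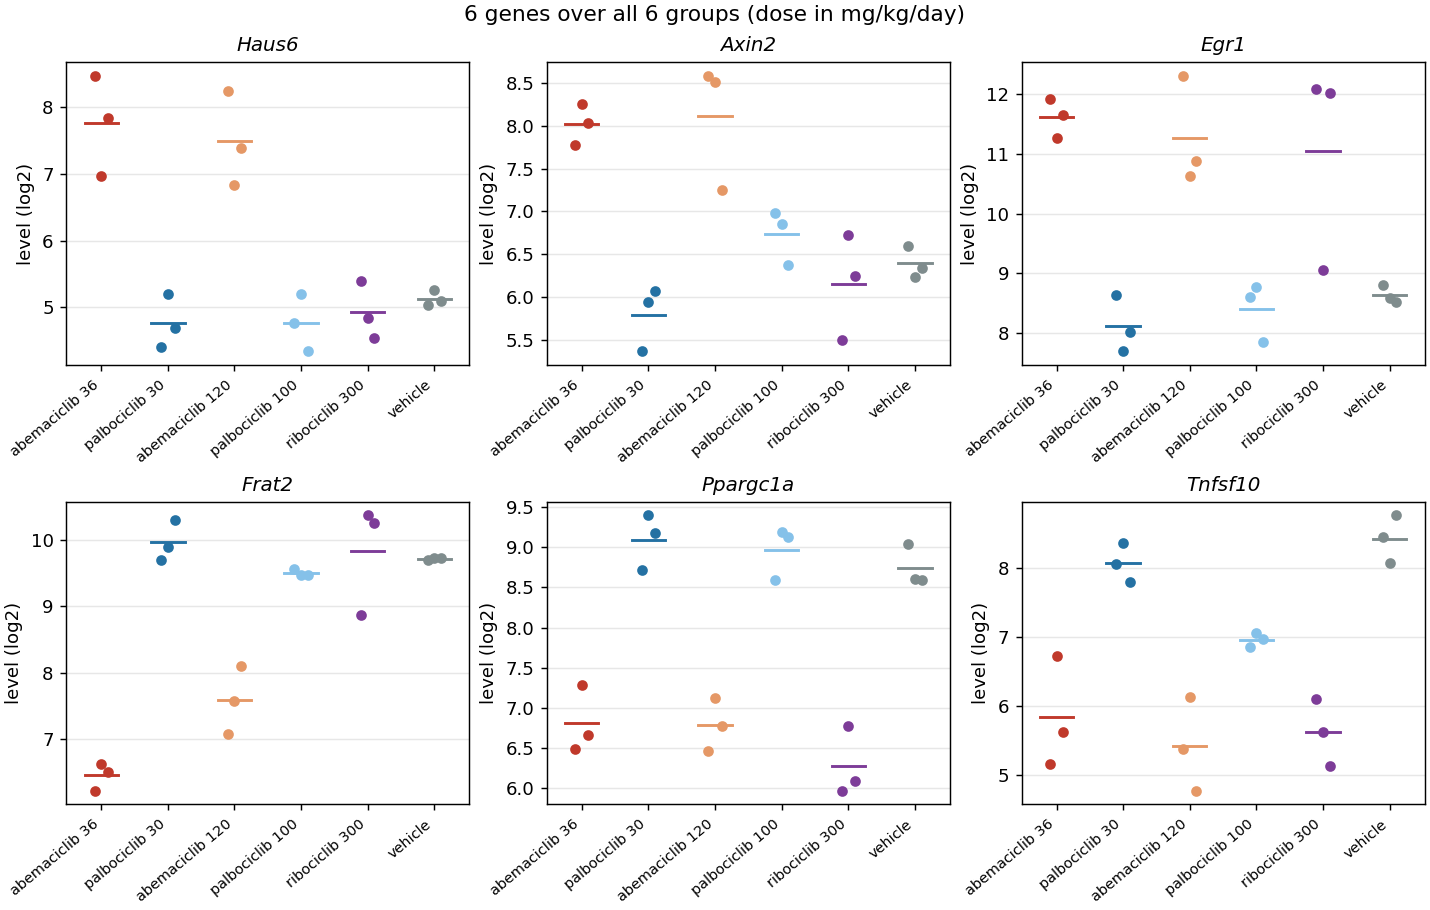
Level (log2) of 6 genes in each of the 18 arrays by group; points are arrays and bars group means (n = 3). Haus6, Axin2 and Frat2 stand apart in both abemaciclib groups, and Ppargc1a and Tnfsf10 in both abemaciclib groups and ribociclib 300.

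Against the vehicle arrays, the 2 compounds at these doses gave unlike numbers of calls. Abemaciclib 36 differed from vehicle in 296 genes (2.08%), 71 higher (0.499%) and 225 lower (1.58%), and palbociclib 30 in 0 (0.0%) by limma. For palbociclib 30, 357 of the 14217 genes had an unadjusted limma p under 0.05, a share that is itself below 0.05. These comparisons share arrays with the main one, so the values are given side by side: the 60 higher genes had a median difference from vehicle of 1.07 in abemaciclib 36 and -0.18 in palbociclib 30, and the 116 lower genes -1.26 in abemaciclib 36 and -0.03 in palbociclib 30. The vehicle arrays were given the medium of palbociclib and not that of abemaciclib.

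Ribosome biogenesis and chaperone genes lay above 0 in most members, with 1 call, a rise. Over all genes, 0.422% were called higher. Of 27 genes of ribosome biogenesis and MYC targets 26 lay above 0 with a median of 0.88, and in 18 all abemaciclib 36 arrays were above all palbociclib 30 arrays (10.0% of all genes), but 1 was called. Without abemaciclib 36 C the median was 0.54, with 24 of 27 above 0. That gene was Nop58, a core protein of box C/D snoRNPs, at 8.58, 7.65 and 9.20 in abemaciclib 36 and 6.21, 6.65 and 6.87 in palbociclib 30 (3.73-fold, log2 1.90, SE 0.44, limma adjusted p = 0.0473). Its call held in 1 of the 6 fits that leave out an array. Ppan, Dkc1 and Nob1, which act in ribosome assembly and pseudouridylation, differed by 1.08, 1.45 and 0.88 and missed the threshold (limma adjusted p = 0.0545, 0.0667 and 0.0698). Of 17 heat shock and chaperone genes 15 lay above 0 with a median of 0.76 and none was called. Among genes chosen after their values were seen, and so with no count or test as a group, the splicing and RNA-binding genes Wbp11, Scaf4, Srrt, Hnrnpc, Sart3 and Pcbp2 rose by 2.19-, 2.64-, 2.58-, 1.89-, 1.93- and 1.77-fold. The second probe set of Srrt differed by 0.75 and the other probe sets of Pcbp2 by 0.59 and 1.14, and none of these passed. Wbp11, a splicing factor whose call held whichever array was left out, stood at 8.73, 8.23 and 8.81 in abemaciclib 36 and 7.32, 7.42 and 7.64 in palbociclib 30 (SE 0.18 log2, limma adjusted p = 0.0062). Nup107, a nuclear pore subunit also chosen after its values were seen, rose 3.04-fold, and its call too held with each array left out.

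Transcription elongation genes gave 1 rise and 1 fall among 23 measured, with a median of 0.12. Over all genes, 0.422% were called higher and 0.816% lower. Hexim1, whose product holds P-TEFb, the CDK9 and cyclin T kinase, in its inactive form, was at 6.88, 6.50 and 7.72 in abemaciclib 36, 8.73, 8.61 and 9.33 in palbociclib 30 and 9.44, 9.61 and 9.65 in vehicle. It fell 3.64-fold (log2 -1.86, SE 0.38, limma adjusted p = 0.0254). Ccnk, cyclin K, the partner of CDK12 and CDK13, stood at 9.17, 8.44 and 9.23 in abemaciclib 36 and 8.07, 7.63 and 7.81 in palbociclib 30. Ccnk rose 2.16-fold (SE 0.25 log2, limma adjusted p = 0.0415). The Hexim1 call held in 2 and the Ccnk call in 1 of the 6 fits that leave out an array. Cdk9 differed by 0.74 and Mepce, the capping enzyme of the 7SK RNA that binds Hexim1, by -1.06, and neither passed (limma adjusted p = 0.0652 and 0.0994). Gtf2b, the general transcription factor TFIIB, chosen after its values were seen, was at 8.47, 8.93 and 8.75 in abemaciclib 36 and 10.27, 10.56 and 10.72 in palbociclib 30, a 3.49-fold fall (SE 0.25 log2, limma adjusted p = 0.0029).

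Most genes of T and NK cells lay below 0, while B and plasma cell genes were split, with 7 of 12 above 0 and a median of 0.13. Of the 25 T and NK cell genes 2 fell, 21 lay below 0 and 15 had every abemaciclib 36 array below every palbociclib 30 array (10.5% of all genes), with a median of -0.52. Cd8a, the CD8 alpha chain of cytotoxic T cells, stood at 5.11, 5.80 and 5.63 in abemaciclib 36, 7.14, 7.15 and 7.72 in palbociclib 30 and 6.80, 6.96 and 7.24 in vehicle. It fell 3.54-fold (log2 -1.82, SE 0.27, limma adjusted p = 0.0042), and its other probe sets differed by -1.77 and -0.41. Nkg7, a protein of cytotoxic granules, was at 6.31, 6.50 and 6.26 in abemaciclib 36 and 7.10, 7.45 and 7.50 in palbociclib 30 (2.0-fold, limma adjusted p = 0.0488). Cd3d, a chain of the T cell receptor complex, differed by -1.43 and missed the threshold (limma adjusted p = 0.0649). Gzmm, Klrb1c and Gimap4, genes of NK and T cells chosen after their values were seen, fell 3.21-, 2.86- and 3.05-fold. In bulk mucosa, fewer cells of a type and less RNA per cell cannot be told apart. None of the 34 interferon-stimulated genes was called, although their median was -0.82 (-0.41 without palbociclib 30 B and -0.53 without abemaciclib 36 C). In 7 of them every abemaciclib 36 array lay below every palbociclib 30 array (10.5% of all genes) and in 1 every one lay above (10.0%). Irf1, an interferon-induced factor, differed by -1.69 and Igtp, an interferon-gamma GTPase, by -1.60. Irgm2, a GTPase of the same family, did pass, at 6.93, 8.25 and 6.84 in abemaciclib 36 and 9.0, 10.45 and 9.20 in palbociclib 30 (4.63-fold, limma adjusted p = 0.0491), a call kept in 1 of the 6 fits that leave out an array. All 8 MHC class II genes lay below 0 with a median of -0.64 (-0.24 without palbociclib 30 B) and none called. Cd68, a lysosomal protein of macrophages, rose 2.01-fold and was the single call among 21 macrophage and dendritic cell genes.

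Several of the named genes fall in none of these lists. Mtfr2, a regulator of mitochondrial fission, stood at 9.49, 9.69 and 8.73 in abemaciclib 36 and 5.88, 6.75 and 5.80 in palbociclib 30, an 8.93-fold rise that 1 of the 6 fits without an array kept (SE 0.73 log2, limma adjusted p = 0.0473). Trim36, a ubiquitin ligase of the tripartite motif family, was at 7.38, 6.88 and 6.93 in abemaciclib 36 and 10.00, 9.49 and 9.40 in palbociclib 30, a 5.92-fold fall that held in all 6 such fits (SE 0.39 log2, limma adjusted p = 0.0062). Lhfpl2, a tetraspan membrane protein gene, fell 5.13-fold and Crebrf, a regulator of CREB3 factors, fell 4.66-fold; in both, abemaciclib 36 B, at 9.34 and 8.16, lay well above arrays A and C, and both calls held in 1 of the 6 fits without an array (limma adjusted p = 0.0457 and 0.0257 with all arrays). The genes with the next lowest adjusted p values after Frat2, chosen after their values were seen, were Maf and Gpsm2. Maf, a leucine zipper transcription factor, stood at 10.04, 10.12 and 9.96 in abemaciclib 36 and 11.32, 11.40 and 11.23 in palbociclib 30, with little spread inside either group. It fell 2.42-fold (SE 0.13 log2, limma adjusted p = 0.00034). Gpsm2, which orients the mitotic spindle, was at 8.47, 9.11 and 8.77 in abemaciclib 36 and 10.73, 10.36 and 10.30 in palbociclib 30 and fell 3.20-fold (SE 0.18 log2, limma adjusted p = 0.00045).

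Markers of other cell types gave few calls. All 18 stroma and collagen genes lay above 0, with a median of 1.16 (0.62 without abemaciclib 36 B), but none was called. In 10 of them every abemaciclib 36 array lay above every palbociclib 30 array (10.0% of all genes). The mean level of the list was 6.17, 7.59 and 6.92 in abemaciclib 36, 5.61, 6.14 and 6.13 in palbociclib 30 and 6.22, 6.94 and 6.63 in vehicle. Goblet cell and mucosal defence genes lay above 0 in 13 of 15 with a median of 0.45 and none called, and Muc2, the main mucin, differed by 0.24 (limma adjusted p = 0.302). No enteroendocrine, Paneth, tuft, mast cell, neutrophil or B cell gene of the lists was called; Chga and Chgb, the chromogranins of enteroendocrine cells, differed by 0.99 and 0.84 (limma adjusted p = 0.0639 and 0.0592). Ctrc, chymotrypsin C, a protease known from the pancreas, stood at 7.66, 7.06 and 6.34 in abemaciclib 36 and 4.71, 5.21 and 5.17 in palbociclib 30, a 3.96-fold rise (SE 0.32 log2, limma adjusted p = 0.0077). The defining pancreatic genes Prss1 and Cpa1 lay between 3.76 and 4.22 in all 6 arrays, against a lowest value of 2.86 on any array, and the median of the 17 pancreatic genes was -0.07. In the p53 and cell death list 2 of 21 fell and none rose: Tnfsf10, the death ligand TRAIL, at 5.16, 6.73 and 5.63 in abemaciclib 36 and 8.06, 8.37 and 7.80 in palbociclib 30 (4.71-fold, SE 0.38 log2, limma adjusted p = 0.0096), and Sesn1, a stress-induced inhibitor of mTORC1, which fell 2.98-fold. The 17 circadian clock genes had a median of -0.47 with none called; Nr1d1, the repressor REV-ERB alpha, differed by -2.44 and Bhlhe40 by 1.77 (limma adjusted p = 0.142 and 0.0824). The time of day of sampling was not analysed here.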

How the data were processed

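The deposited values are log2 expression, 1 per probe set and array; per the submitters' processing notes they come from RMA, with Affymetrix Expression Console and the Transcriptome Analysis Console also listed and no settings given. RMA fixes each array's signal distribution, so a change of total RNA is not visible. Probe sets with 1 gene symbol were kept (20826 of 31099), and the brightest stood for a gene. Arrays were grouped by treatment label; 1 title gives 100 where its treatment label gives 120 mg/kg/day, and the treatment label was used. limma 3.58.1 (R 4.3.3) fitted 1 mean per group over 18 arrays (eBayes with trend, 12 residual degrees of freedom), adjusting two-sided p-values over 14217 genes. With 3 arrays a side, an exact permutation test has a smallest p of 0.1. On simulated data for abemaciclib 36 minus palbociclib 30 (14217 genes), the fit recovered 28% of changes of 1.5-fold, 70% at 2-fold and 96% at 4-fold, with 5 false calls of 152. The simulated noise was independent between genes and arrays, without the deviations that genes of an array share here. These rates may therefore not hold for the real arrays. Genes named are the 15 largest rises and falls among calls without overlap of abemaciclib 36 and palbociclib 30 arrays, a filter that all 176 calls passed. Up to 4 members per list by smallest p and a fixed set were also named. Others are said to be chosen after their values were seen. The comparison, gene lists and alternatives were chosen with earlier results of these data known. The number of arrays limits the precision.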

Additional observations from a re-analysis of the deposited data

Results flagged for a closer look

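In 12 members of the gene lists the difference at the lower doses (abemaciclib 36 minus palbociclib 30) departed from that at the higher doses (abemaciclib 120 minus palbociclib 100) by limma's test of the difference itself, with adjusted p under 0.05 over all genes. The lower-dose difference minus the higher-dose one was -2.80 for Mcm4, -2.41 for Mcm7 and -1.89 for Mcm2, subunits of the replicative helicase, -2.65 for Ttk, -2.37 for Plk4 and -1.71 for Dlgap5, which act in mitosis and centriole duplication, -1.82 for E2f8, an E2F family repressor, and -1.70 for Uhrf1, which maintains DNA methylation. All 8 were higher with abemaciclib 120 than with palbociclib 100. At the lower doses Mcm4 was at 4.81, 5.17 and 6.32 in abemaciclib 36 and 4.57, 4.59 and 4.86 in palbociclib 30. The contrast of the pairs ran the other way for 4 genes of the enterocyte: 3.94 for Treh, the brush border trehalase, 2.98 for Slc28a1, a nucleoside transporter, 2.10 for Ace and 1.31 for Akr1b8, an aldo-keto reductase. Treh averaged 7.88 in abemaciclib 36 and 7.81 in palbociclib 30, against 4.84 in abemaciclib 120 and 8.70 in palbociclib 100. With the beta-actin 3′ to 5′ measure as a covariate, 1 gene in all kept a difference between the pairs. With 3 arrays a group, no array could be tested as an outlier.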

How the results depend on the processing

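The 176 calls of abemaciclib 36 minus palbociclib 30 became 15 with only the 6 arrays fitted, 336 with those 6 and vehicle, and 32 to 775 with 1 array left out; 9 other settings gave 135 to 256. Array letters were not used to pair abemaciclib 36 with palbociclib 30 in the main fit. Their same-letter correlations were 0.02 to 0.31 and their other-letter ones -0.36 to 0.19. The replicate block gave 256 calls, 170 of the 176 among them. Same-lettered arrays of abemaciclib 36 and abemaciclib 120 deviated together (0.13, 0.59 and 0.30), although abemaciclib 36 A correlated more with abemaciclib 120 C, at 0.21. With the block, 135 genes were called the same way at both pairs. List members called (31) became 5 with the 6 arrays, 55 with vehicle added and 9 to 82 with 1 array left out. Abemaciclib 36 minus vehicle (296) gave 46 to 531 with 1 array left out. The higher dose pair (2598) gave 970 with the RNA quality covariate, 4317 with array median centring and 1344 to 2643 with 1 array left out; genes called the same way at both pairs (96) became 43 and 150 under those 2 settings. The difference of the pairs (50) became 1 with the covariate, 118 with centring, 5 without dim genes, 22 without the trend, 78 with mean probe sets, 91 with quantile re-normalization, 26 with the replicate block and 2 to 297 with 1 array left out. Of the 65 called genes named, none changed sign under the settings run. Gene list medians without each array were added after seeing the data. Signs changed in genes that did not pass: Cdk6 (-0.0333 with centring, -0.0605 to 0.13 with 1 array left out), Fabp1 (0.0011 with the covariate, -0.0325 to 0.0345), Mki67 (-0.79 to 0.31), Alpi (-0.62 to 0.12), Mcm7 (-0.17 to 0.53), Akr1b8 (-0.22 to 0.23) and Treh (-0.0020 with centring, -0.0105 with quantile re-normalization, -0.53 to 0.45). The cause of these changes was not tested, except that fewer arrays leave fewer degrees of freedom. Signal above background was not tested per probe set.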
